A study of Mus musculus with 6 samples.

Results

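Fragments of the aspartate tRNA with the anticodon GTC (GUC in the RNA) were examined in brain tissue of the inbred mouse strain C57BL/6 at 2 ages, 3 months (3 libraries) and 22 months (3 libraries). The labels name no treatment, genetic change or sex for either age. The deposited table counts sequenced tags of tRNA-derived small RNAs, each with its own ID, and lists for every ID the tRNAs, called parents here, that it was assigned to. A fragment was taken as Asp-GTC when all of its parent names begin with Asp-GTC, without regard to a prefix for a precursor, and at least 1 parent is a mature tRNA. This gave 19 of the 591 IDs in the table. A further 4 IDs are listed under Asp-GTC precursors only, and 0 IDs name Asp-GTC together with another anticodon. The table names tRNA fragments only, so the tissue could not be checked against marker genes, and nothing in the labels says whether the 3 libraries of an age came from separate animals. The p-values below therefore measure the spread between these libraries, which may be technical.

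This tRNA delivers aspartate to the ribosome. It is transcribed as a precursor whose 5′ leader and 3′ trailer are removed by RNase P and RNase Z, after which an enzyme adds the bases CCA that carry the amino acid. Its anticodon loop is heavily modified: the first anticodon base is exchanged for queuosine, and DNMT2 (TRDMT1) methylates a cytosine of the anticodon loop, a mark known to protect the tRNA from being cut. Cuts in the anticodon loop, by angiogenin for example, give long fragments that start or end at the anticodon, and cuts elsewhere give shorter ones, some of which keep the CCA.

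The table holds 16 mature Asp-GTC names with 4 different sequences, which are shown because the parent names of a fragment differ with these bases. The 13 copies named Asp-GTC-1 are identical. In the first line capitals mark the anticodon, at positions 34 to 36 of 75, counted from 1 at the 5′ end and with the CCA included. In the other mature tRNAs capitals mark the bases that differ from Asp-GTC-1.
Asp-GTC-1: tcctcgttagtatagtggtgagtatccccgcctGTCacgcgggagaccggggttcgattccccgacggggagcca
Asp-GTC-2-1: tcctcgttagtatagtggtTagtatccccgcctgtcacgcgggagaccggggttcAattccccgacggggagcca
Asp-GTC-3-1: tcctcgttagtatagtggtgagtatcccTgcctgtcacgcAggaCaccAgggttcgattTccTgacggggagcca
Asp-GTC-4-1: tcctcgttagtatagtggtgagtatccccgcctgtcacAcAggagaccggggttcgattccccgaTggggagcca
Against Asp-GTC-1, the substitutions are G20T and G56A in Asp-GTC-2-1, and G39A, G41A and C66T in Asp-GTC-4-1. Asp-GTC-3-1 differs at 6 bases. The precursor of copy Asp-GTC-1-11 is shown because 3 fragments are listed under it alone. Its capitals mark the 39 nt before and the 40 nt after the mature sequence.
pre-Asp-GTC-1-11: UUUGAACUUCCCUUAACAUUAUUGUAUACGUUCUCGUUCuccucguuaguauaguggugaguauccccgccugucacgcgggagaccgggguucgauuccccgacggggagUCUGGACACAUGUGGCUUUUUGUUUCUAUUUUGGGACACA

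In the genome build GRCm38 (mm10), RefSeq annotates 16 tRNA genes whose symbols begin with n-TDgtc, each 72 nt long, the length of the mature sequence without the CCA. They lie on chromosomes 1 (5 genes), 2 (1 gene), 5 (3), 10 (2), 11 (2) and 13 (3). The genes on chromosome 1 lie between 171037029 and 171102442, and those on chromosome 13 between 21911313 and 21940390. Against the GENCODE M21 annotation, n-TDgtc2 (chromosome 2, 114103367 to 114103438) lies in an intron of Aqr, n-TDgtc12 (chromosome 13, 21940319 to 21940390) overlaps an exon of the long noncoding RNA gene Gm11280, and the others overlap no annotated gene. The table's copy names were not matched to single RefSeq genes.

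The table gives the sequence of the parents and not of the fragment, so where a fragment lies within the tRNA is not known directly. The parent names limit it. The 19 fragments fall into 10 different parent sets, and 15 of them share their set with at least 1 other fragment, so fragments of a set may overlap and are not independent. The following 3 groups of parents hold most of the tags. AS-tDR-001808, AS-tDR-001809 and AS-tDR-008981 are listed under all 13 Asp-GTC-1 copies and 4 of their precursors. AS-tDR-000205, AS-tDR-005859 and AS-tDR-006372 are listed under the 13 mature copies and under no precursor. AS-tDR-001817, AS-tDR-001852, AS-tDR-011427 and AS-tDR-001849 are listed under the 13 copies, Asp-GTC-2-1 and precursors of Asp-GTC-1. The other 9 name no mature Asp-GTC-1 copy.

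All 4 precursors of Asp-GTC-1 contain the whole mature sequence without the CCA, and 0 contain it followed by CCA. If IDs were assigned by exact match, a stretch of 15 to 50 nt found in the 13 mature copies but in no other Asp-GTC name must cover positions 56 to 73, where 73 is the first base of the CCA. That places AS-tDR-000205, AS-tDR-005859 and AS-tDR-006372 at the CCA end under this assumption. For AS-tDR-001817 and AS-tDR-001852 the possible stretches lie between positions 21 and 72, on either side of position 56, where Asp-GTC-2-1 differs. For AS-tDR-001808, AS-tDR-001809 and AS-tDR-008981 the outer limits are positions 1 and 72, so these fragments would hold no CCA. Not every place within these limits is possible. Each stretch must hold a base that differs in Asp-GTC-2-1 and also a base that differs in Asp-GTC-4-1. A stretch from the 5′ end that stops at the anticodon is excluded, because Asp-GTC-4-1 has the same bases up to there. The parent sets of 6 fragments, AS-tDR-001849 and AS-tDR-011427 among them, cannot come from any exact stretch. Exact matching of 15 to 50 nt therefore cannot have given every listing. The matching rule is not given in the sources used here, so the places above are conditional.

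Listed tags summed to between 44156 and 57425 per library at 3 months and between 71121 and 96130 at 22 months. Each library lists only counts above a minimum, 8 to 11 tags at 3 months and 13 to 17 at 22 months, so a 0 means a level under that minimum and not absence. Replicate 3 at 22 months stood apart from the other libraries: its Spearman correlations with them over the 591 IDs lay between 0.577 and 0.824, against 0.806 to 0.916 among the other 5. Over the 19 Asp-GTC fragments, its correlations with the 3 month libraries lay between 0.153 and 0.203, against 0.571 to 0.821 for the other 22 month libraries. Several results that rest on it are also given without it.

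As a whole, the Asp-GTC fragments took a small share of the listed tags, and the ages overlapped. At 3 months they summed to 254, 228 and 250 tags in replicates 1, 2 and 3, which is 0.442%, 0.505% and 0.566% of the listed tags. At 22 months they summed to 505, 350 and 340 tags, or 0.71%, 0.364% and 0.401%. The highest and the lowest share both belonged to the older brains. The 95% exact Clopper-Pearson intervals, which cover counting error only, were 0.65% to 0.774% for 22 month replicate 1 and 0.327% to 0.404% for replicate 2, so these libraries of the same age differed beyond counting error. The means were 0.505% ± 0.0619 and 0.492% ± 0.19 (SD, n = 3 each), a difference of -0.013 percentage points (exact two-sided permutation test, p = 1, also when adjusted over the 3 shares compared). The difference depended on single libraries and fragments: it was -0.122 points without 22 month replicate 1, 0.018, 0.051 and 0.033 without 3 month replicate 3, 22 month replicate 2 and 22 month replicate 3, and -0.117 without AS-tDR-001808 and AS-tDR-001809. Among the 41 sums of mature fragments by anticodon, Asp-GTC ranked between 17 and 21 in every library.

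**Figure D1:**
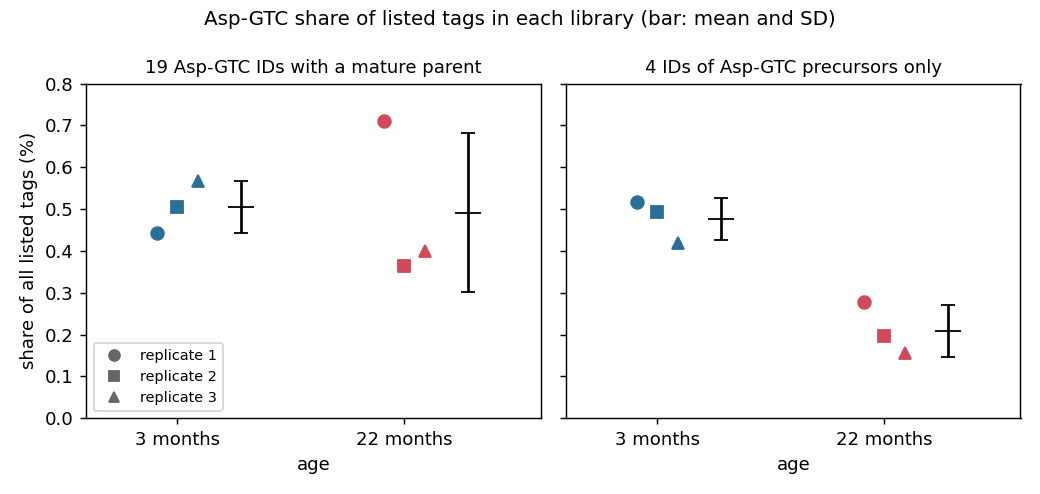
Share of all listed tags (%, y axis) taken by the 19 Asp-GTC fragments with a mature parent (left) and by the 4 fragments of Asp-GTC precursors only (right), at 3 and 22 months (x axis). Each symbol is 1 library and the black bar gives the mean and SD of the 3 libraries. On the left the ages overlap, with 22 month replicate 1 highest at 0.71%, and on the right every 22 month library lies under every 3 month library.

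A model fitted to sums per anticodon gave a log2 difference of 0.23 (SE 0.22) between 22 and 3 months for the Asp-GTC fragments, which did not pass the threshold (edgeR quasi-likelihood test over 60 sums, Benjamini-Hochberg adjusted p = 0.495). Of these sums, 13.3% rose and 10.0% fell. The sign of the Asp-GTC difference depended on the scaling: with library size only, in place of TMM scaling (a correction for differences in composition), it was -0.03. Because tissue was sequenced in bulk, fewer cells of a type and less RNA per cell cannot be told apart, here and below.

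The 2 Asp-GTC fragments past the threshold belong to a single set with identical parents. AS-tDR-001808 was listed at 0 in all 3 libraries at 3 months and had 59, 26 and 51 tags in replicates 1, 2 and 3 at 22 months. AS-tDR-001809 was likewise listed at 0 in all 3 young libraries and had 54, 19 and 40 tags in the old ones. In 22 month replicate 2, where both were lowest, the smallest count listed was 17, so AS-tDR-001809 lay just over the listing minimum there. In CPM (tags brought to a common library total, with TMM correction), AS-tDR-001808 reached 608 ± 254 at 22 months, at least 3.39-fold higher than at 3 months, and AS-tDR-001809 reached 506 ± 252, at least 2.82-fold higher (SD, n = 3 each). The reference for both bounds is the average of the lowest levels listed in the young libraries, 179 CPM. Without 22 month replicate 3, AS-tDR-001808 was at least 3.11-fold higher and AS-tDR-001809 at least 2.68-fold.

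AS-tDR-008981, the third fragment of that set, had 50, 38 and 35 tags at 3 months and 42, 47 and 21 at 22 months, from deeper libraries. Its level went from 785 ± 50.8 to 478 ± 161 CPM (SD, n = 3 each), with every old library under every young one. At -0.71 (SE 0.32), its log2 difference was short of the threshold (edgeR, adjusted p = 0.229). The value without 22 month replicate 3 was -0.39. Across all 439 IDs tested, 20.0% were lower without overlap between the ages and 19.4% were higher, so separation alone is common in these libraries.

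AS-tDR-001808 and AS-tDR-001809 were the only Asp-GTC fragments past the threshold, 2 of 9 tested, both higher (edgeR quasi-likelihood test, adjusted p = 0.0489 for each). Of all IDs tested 4.78% rose and 1.82% fell. Both passed the filter on low counts only through the 22 month libraries, so a difference was built into their being tested, and their calls are given as a description. Neither passed when any of the 6 libraries was left out (edgeR, adjusted p between 0.0679 and 0.128), with library size only (0.085 each), without the filter on low counts (0.0711 each) or in limma-voom (0.129 and 0.174). Of the Asp-GTC fragments 0 fell in edgeR, DESeq2 or limma-voom. At an unadjusted p under 0.05, 0 were lower in this edgeR fit and in DESeq2, and 1, AS-tDR-008981, was lower in limma-voom and under 4 other alternatives in scaling or filter. Over the whole series, 9 of 591 IDs, or 1.52%, were listed at 0 in every young library and above 0 in every old one.

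**Figure D2:**
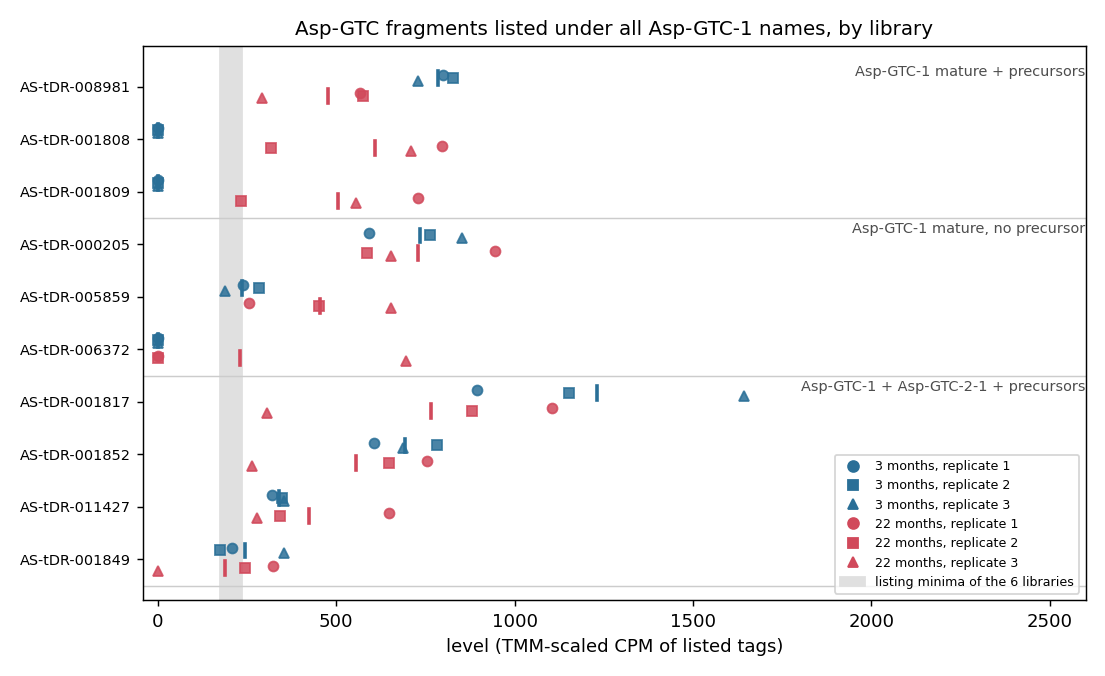
Level of 10 Asp-GTC fragments (y axis, grouped by parent names) in TMM-scaled CPM of listed tags (x axis, linear). Symbols are libraries, vertical bars are means of the 3 libraries of an age, and the grey band spans the listing minima of the 6 libraries. AS-tDR-001808 and AS-tDR-001809 are at 0 in the 3 libraries at 3 months and over the band, or just inside it for AS-tDR-001809 in replicate 2, at 22 months.

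Among the fragments listed under the mature copies without a precursor, those placed at the CCA end if matching was exact, the most abundant had nearly equal means at both ages. AS-tDR-000205 had 37, 35 and 41 tags at 3 months, against 70, 48 and 47 at 22 months. Its mean levels were 735 ± 133 and 728 ± 190 CPM (SD, n = 3 each). Its log2 difference was -0.01 (SE 0.28; edgeR, adjusted p = 0.98). AS-tDR-005859 had 15, 13 and 9 tags at 3 months and 19, 37 and 47 at 22 months. Its levels of 237 ± 47.9 and 454 ± 199 CPM (SD, n = 3 each) overlapped between the ages, through replicate 1 at 22 months, and a log2 difference of 0.93 (SE 0.51) was short of the threshold (edgeR, adjusted p = 0.294). Without 22 month replicate 3, in which it was highest, the difference was 0.66. AS-tDR-006372 had 50 tags in 22 month replicate 3 and was listed at 0 in the other 5 libraries, so it was not tested.

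The fragments that Asp-GTC-1 shares with Asp-GTC-2-1 were, as a group, the most abundant at 3 months. AS-tDR-001817, the most abundant Asp-GTC fragment over the 6 libraries, had 56, 53 and 79 tags at 3 months and 82, 72 and 22 at 22 months. In CPM it went from 1231 ± 381 to 764 ± 413 (SD, n = 3 each), with overlap. The log2 difference was -0.68 (SE 0.50; edgeR, adjusted p = 0.457), and -0.24 without 22 month replicate 3. AS-tDR-001852 had 38, 36 and 33 tags at 3 months and 56, 53 and 19 at 22 months. Its log2 difference was -0.31 (SE 0.42; edgeR, adjusted p = 0.685), and 0.09 without 22 month replicate 3. Both fragments were lowest in that library, at 22 and 19 tags against a smallest listed count of 17.

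AS-tDR-011427 had 20, 16 and 17 tags at 3 months and 48, 28 and 20 at 22 months. Its log2 difference was 0.31 (SE 0.45; edgeR, adjusted p = 0.698), and -0.03 without 22 month replicate 1, in which it was highest. AS-tDR-001849, listed under the same parents, had 13, 8 and 17 tags at 3 months, 24 and 20 in replicates 1 and 2 at 22 months and 0 in replicate 3. The log2 difference, -0.37 (SE 1.36; edgeR, adjusted p = 0.881), turned to 0.27 without that library. In 22 month replicate 3, each of these 4 fragments was thus at its lowest CPM of the 6 libraries.

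Expressed as shares of the Asp-GTC tags, which need no scaling between libraries, the 3 larger groups shifted as follows. The fragments under Asp-GTC-1 copies and precursors made up 19.7%, 16.7% and 14% at 3 months and 30.7%, 26.3% and 32.9% at 22 months, higher in every old library. The pair AS-tDR-001808 and AS-tDR-001809 alone made up 22.4%, 12.9% and 26.8% at 22 months. The fragments shared with Asp-GTC-2-1 made up 50%, 49.6% and 58.4% at 3 months and 41.6%, 49.4% and 17.9% at 22 months. Replicate 2 at 22 months, at 49.4%, lay next to the lowest young library, while replicate 3 lay far under both other old libraries. The fragments under mature copies without a precursor made up 20.5%, 21.1% and 20% at 3 months and 17.6%, 24.3% and 42.4% at 22 months, so the ages overlapped and only replicate 3 lay far from the young libraries.

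The exact two-sided permutation test gave p = 0.1 for the first and the second of these groups, the smallest that 3 libraries against 3 allow, p = 0.4 for the third and p = 0.3 for the fragments without an Asp-GTC-1 mature name. Adjusted over the 4 groups these were 0.2, 0.2, 0.4 and 0.4. The shares of a library sum to a whole, so a rise of 1 group lowers the others. The first group was higher only through AS-tDR-001808 and AS-tDR-001809, at 0 in all young libraries. Both its test and that of the second group depend on this pair and are descriptions. AS-tDR-008981 went from 19.7%, 16.7% and 14% to 8.3%, 13.4% and 6.2%. Without the pair, the second group held 210, 173 and 61 of 392, 305 and 249 tags at 22 months. At 3 months it held 127, 113 and 146 of 254, 228 and 250. On these counts the ages overlapped, and only 22 month replicate 3 lay under the young libraries. These shares were not tested. Without 22 month replicate 3 the mean shares at 22 months were 28.5% for the first group, against 16.8% at 3 months, 45.5% for the second, against 52.7%, and 20.9% for the third, against 20.5%.

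**Figure D3:**
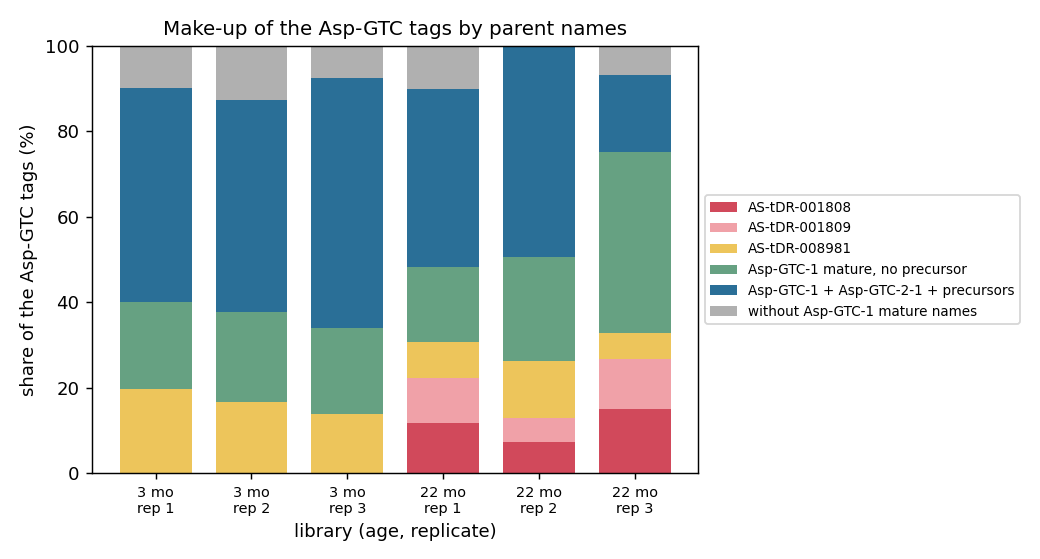
Share of the Asp-GTC tags (%, y axis) in each of the 6 libraries (x axis), stacked by fragment or by group of parent names. The 2 red segments, AS-tDR-001808 and AS-tDR-001809, are present at 22 months only at this listing minimum, and in 22 month replicate 3 the fragments without a precursor name take 42.4%.

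Of the 9 fragments that name no mature Asp-GTC-1 copy, none was listed in more than 2 libraries. All 9, together with AS-tDR-006372, failed the filter on low counts and were not tested. At 3 months AS-tDR-000062 had 12 tags and AS-tDR-015083 had 13, both in replicate 1, AS-tDR-013670 had 9 in replicate 2, and AS-tDR-000063 had 9 and AS-tDR-000463 had 10 in replicate 3. At 22 months AS-tDR-001889 had 17 tags in replicate 1 and AS-tDR-010069 had 23 in replicate 3. Each of these 7 was listed at 0 in the other 5 libraries. AS-tDR-008293 had 8 tags in 3 month replicate 2 and 15 in 22 month replicate 1, and AS-tDR-011389 had 12 and 19 tags in the same libraries. Counts this close to the listing minima of 8 to 17 show that a fragment was listed in a library and no difference between ages could be detected at this depth.

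Of the 19 fragments, 6 were above 0 in all 6 libraries. Their log2 differences ran from -0.71 to 0.93 with a median of -0.16, 4 negative and 2 positive, and 0 passed the threshold (edgeR, adjusted p between 0.229 and 0.98). The median over the 290 IDs of the table that were above 0 in all libraries was -0.04.

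**Figure D4:**
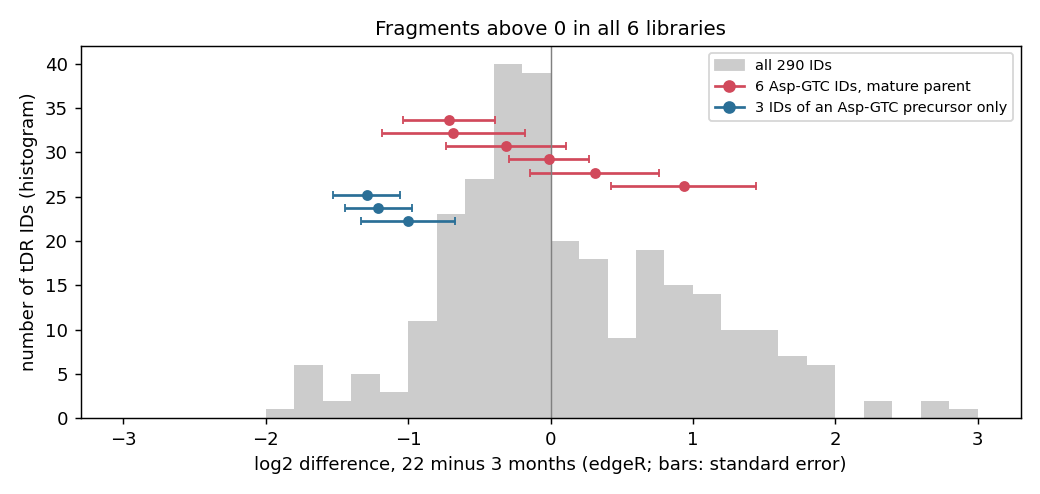
Log2 differences between 22 and 3 months (x axis) of fragments above 0 in all 6 libraries. The grey histogram counts all 290 such IDs (y axis), and points with bars give the estimate and standard error of 6 Asp-GTC fragments with a mature parent (red) and 3 of an Asp-GTC precursor only (blue), whose height in the plot carries no value. The red points spread on both sides of 0 and the blue points lie between -1.29 and -1.0.

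Of the 4 fragments of Asp-GTC precursors only, 2 fell with age, 0 rose and 2 did not pass the threshold, where 1.82% of all IDs tested fell and 20.0% were lower without overlap. AS-tDR-008906, AS-tDR-011793 and AS-tDR-011796 are listed under the precursor pre-Asp-GTC-1-11 alone, and each was lower in every old library than in any young one on the CPM scale. AS-tDR-008906, the most abundant, had 168, 139 and 109 tags at 3 months and 105, 93 and 64 at 22 months, and fell by 1.21 on the log2 scale (SE 0.24). AS-tDR-011793 fell by 1.29 (SE 0.24; edgeR, adjusted p = 0.0489 for both). For AS-tDR-011796 the log2 difference was -1.0 (SE 0.33), short of the threshold (edgeR, adjusted p = 0.112). Both calls were lost when any of the 6 libraries was left out, when only library size was used for scaling and without the filter on low counts (edgeR, adjusted p between 0.0567 and 0.138). They held under 5 other alternatives, among them limma-voom (adjusted p = 0.0423 each) and DESeq2 (adjusted p = 6.18e-05 for AS-tDR-008906 and 0.000238 for AS-tDR-011793). Without 22 month replicate 3, the log2 differences of AS-tDR-008906 and AS-tDR-011793 were -1.0 and -1.12. The fourth, AS-tDR-010736 of pre-Asp-GTC-1-5 and pre-Asp-GTC-1-9, had 14, 0 and 0 tags at 3 months and 32, 21 and 24 at 22 months and did not pass (edgeR, adjusted p = 0.476). In TMM-scaled CPM it was higher in every old library than in any young one, as were 19.4% of all IDs tested. As a share of listed tags the ages overlapped.

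Summed, the precursor-only tags were 297, 222 and 185 at 3 months and 197, 188 and 132 at 22 months, and their sum fell by 0.91 on the log2 scale (SE 0.20; edgeR over the 60 sums, adjusted p = 0.0243). That call did not hold when any of the 3 month libraries was left out (edgeR, adjusted p between 0.0893 and 0.098) or with library size only (0.0694). It held when any of the 22 month libraries was left out (edgeR, adjusted p between 0.0312 and 0.0438), in limma-voom (adjusted p = 0.015) and in DESeq2 (adjusted p = 0.000118). Set against the fragments with a mature parent from the same library, the log2 ratio of precursor-only to other Asp-GTC tags was 0.23, -0.04 and -0.43 at 3 months and -1.36, -0.90 and -1.36 at 22 months. The ratio, which needs no scaling between libraries, was lower in every old library, a difference of -1.12 (exact two-sided permutation test, p = 0.1, the smallest possible). Of all Asp-GTC tags, precursor-only IDs took 48.6% ± 5.72 in the young libraries and 30.3% ± 4.0 in the old ones (SD, n = 3 each). AS-tDR-001808 and AS-tDR-001809, listed at 0 at 3 months, lower both the ratio and this share at 22 months. Together they held 113, 45 and 91 of the tags with a mature parent there. Without this pair those tags were 254, 228 and 250 at 3 months and 392, 305 and 249 at 22 months. The ratio without the pair was not tested.

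The other tRNAs that carry queuosine in the anticodon, Asn-GTT, His-GTG and Tyr-GTA, gave 63 fragments with a mature parent, of which 45 were tested. Of these, 3 rose, a share close to the 4.78% over all IDs, 0 fell and 42 stayed short of the threshold. The median log2 difference was -0.02 over those tested and 0.35 over the 34 above 0 in all 6 libraries. All 3 that rose were of Asn-GTT, whose 11 tested fragments had a median of 1.20, also over the 9 above 0 in all libraries. The median of His-GTG was -0.11 over the 20 tested and 0.355 over the 13 above 0 in all libraries, and that of Tyr-GTA -0.22 over 14 and -0.205 over 12. The 2 other tRNAs known as DNMT2 substrates, Gly-GCC and Val-AAC, gave 33 fragments, of which 28 were tested, and 0 rose or fell in edgeR (at an unadjusted p under 0.05, 4 were higher and 1 was lower). Their median was 0.85, and 0.91 over the 17 above 0 in all libraries. The median was -0.01 over the 9 Asp-GTC fragments tested and -0.15 over all 439 IDs. Under library size only the median over all IDs moved to -0.34, and log2 differences are to be read against that shift.

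Among the sums of mature fragments per anticodon that were above 0 in every library, the one whose pattern over the 6 libraries was most like that of Asp-GTC was Cys-GCA, with a Pearson correlation of 0.882 of log2 CPM. It took 0.493%, 0.636% and 0.747% of listed tags at 3 months and 0.773%, 0.476% and 0.374% at 22 months, so it too was highest in 22 month replicate 1. Ile-AAT (0.697) and Leu-CAG (0.68) followed, of 31 sums compared. The sums share libraries and totals, and these values describe 6 points only.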

How the data were processed

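Small RNA libraries were sequenced on an Illumina NextSeq with single reads after Trizol extraction of total RNA, per the labels' protocols. The submitters' processing notes name FastQC, cutadapt, Novoalign and the build mm10. How tags were counted, matched to parents and listed is not given in the sources used here. Per the file headers, the authors deposited tag counts for each tDR ID. The table is titled normalized, but library totals differ, and the values were treated as raw counts. Counts repeat on each of the 3257 lines, so every ID was taken once. The columns, named Age and WT with numbers 1 to 3, were read as 22 and 3 months, although the sample titles are worded differently.

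The whole table was fitted with edgeR 4.0.16 under R 4.3.3 (quasi-likelihood test after TMM scaling, low counts removed by filterByExpr at its minimum count of 10) and adjusted by Benjamini-Hochberg over the 439 IDs kept, with a threshold of 0.05. CPM of single IDs are TMM-scaled and do not compare with the separate fit of sums. A standard error is the size of the log2 difference over the square root of the F statistic. Shares were compared by exact permutation tests. The code was tested on simulated data. DESeq2 1.42.0, limma-voom (limma 3.58.1), other scalings and filters, a replicate term and omitted libraries were alternatives. Leaving AS-tDR-001808 and AS-tDR-001809 out of the sum was an alternative added after seeing the data. Figures used matplotlib 3.10.9.

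Fragments given by library were the 8 most abundant, those past the threshold and those at 0 in all libraries of an age. AS-tDR-001849, AS-tDR-008293 and AS-tDR-011389 are named outside this rule to complete the account. Members and lists were chosen with earlier results of these data known. Replicates of an age differed beyond sampling noise (a chi-square of 6.6 to 59.7 per degree of freedom). Each library was counted as 1 sample, although the labels do not say whether libraries came from separate animals.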

Additional observations from a re-analysis of the deposited data

How the results depend on the processing

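Of all IDs, 21 rose and 8 fell in the main test. With the replicate block, without a filter on low counts and with library size only, 0 rose and 0 fell (unadjusted p under 0.05 with the replicate block: 46 higher and 32 lower, and with library size only 46 and 61). Restricted to IDs above 0 in all 6 libraries 38 rose and 27 fell, with each 0 replaced by 1 less than its library's smallest listed count 53 and 31, with DESeq2 59 and 38, with limma-voom 26 and 20, and with DESeq2 size factors 29 and 15. With 1 library left out, 0 to 9 rose and 0 to 7 fell. Of the Asp-GTC IDs, 2 rose in the main test, with DESeq2 size factors, with DESeq2 and with zeros so replaced, and AS-tDR-001808 and AS-tDR-001809 were those 2 each time. None rose (0) without a filter, with library size only, with IDs above 0 in all 6 libraries (which drops both), with limma-voom, with the replicate block, or with any library left out (0 to 0). In each of these edgeR and limma-voom settings but that restriction, both had an unadjusted p under 0.05. Apart from the setting without a filter, both were tested only through their tags in the old libraries. A difference was thus built into their being tested, and these calls and p-values are given as a description.

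The summed Asp-GTC log2 difference of 0.23 turned to -0.03 with library size only and to -0.25 with precursor-only IDs summed in, ran from 0.01 to 0.36 with a library left out, and was 0.21 with the replicate block. Its share difference of -0.013 percentage points turned to 0.053 with the TMM-scaled total and to 0.018, 0.051 and 0.033 without 3 month replicate 3, 22 month replicate 2 and 22 month replicate 3, with -0.122 to 0.051 as the range when 1 library was left out. It was -0.279 with precursor-only IDs added and -0.117 without AS-tDR-001808 and AS-tDR-001809. The log2 difference of AS-tDR-000205, -0.01, turned to 0.02 with zeros so replaced and to 0.09, 0.11, 0.12 and 0.12 without 3 month replicates 2 and 3 and 22 month replicates 2 and 3, in a range from -0.14 to 0.12. That of AS-tDR-001849 turned to 0.14 with those zeros and 0.27 without 22 month replicate 3 (from -0.88), that of AS-tDR-001852 to 0.09 without the latter (from -0.49), and that of AS-tDR-011427 to -0.03 without 22 month replicate 1 (up to 0.59 with another library left out). The cause of these turns was not tested. The log2 differences of AS-tDR-001817, AS-tDR-008981 and AS-tDR-005859 kept their sign under all 14 alternatives and passed in none.

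Same-numbered libraries of the ages did not deviate together (correlations of -0.504, 0.069 and -0.401), and not every library correlated best with its own number, so the numbers were not taken to pair samples. With the replicate block the adjusted p was 0.218 for AS-tDR-001808, 0.277 for AS-tDR-001809, 0.191 for AS-tDR-008906 and AS-tDR-011793 and 0.0972 for the precursor-only sum, none past the threshold. Counts of 8 to 82 tags per listed value of the fragments with a mature parent and the listing minimum limit the precision.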
